A study of Mus musculus with 31 samples.

Results

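The 10 genes described here, Lpgat1, Gm973, Gm10451, BC064078, Lgals7, Mapre3, Trio, 4930539E08Rik, 2310030G06Rik and Ereg, were read in every library of Ba/F3 cells that carried the R98S mutant of the ribosomal protein RPL10 and were nearly absent from cells that carried wild-type (WT) RPL10. They are 10 of the 41255 genes in the series and were chosen by their reads: each had at most 3 reads in any WT total mRNA library and clear expression in R98S. Because the comparison of R98S with WT chose them, their levels in these groups are given as a description, with no test. The polysomal to total ratio within R98S was not used by the choice and was tested, with the limit that its denominator, the R98S total mRNA level, was. Clear expression in R98S favours genes read in all R98S clones, so the comparison of clones is a description too.

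Ba/F3 is a mouse lymphoid B cell line that grows in interleukin 3. All cells of the series carried a retroviral human RPL10 cDNA, WT or R98S, together with a short hairpin RNA against the endogenous mouse Rpl10, and no other treatment. They were grown as single-cell derived clones, R98S clones 11, 13 and 35 and WT clones 28, 29 and 36, so each genotype rests on 3 clones. A culture is named by its replicate number, its genotype and its clone, as in 2-R98S13. Total mRNA was sequenced from 9 R98S and 8 WT cultures. Polysomal RNA, from pooled gradient fractions in which several ribosomes sit on an mRNA, was sequenced from 8 R98S and 6 WT cultures. The study set aside 1 WT total mRNA library that fell among the R98S libraries in its principal component analysis. That library was not analysed here, so the near absence from WT refers to the libraries that remain.

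Between 9338671 and 22059792 reads per library stood behind the total mRNA values and between 8831180 and 20754046 behind the polysomal values. The mouse Rpl10 row lay between 901 and 2984 normalised counts in R98S total mRNA and between 620 and 5715 in WT, and the ranges overlapped. Of 16 haematopoietic and B lineage markers 10 were tested between R98S and WT in total mRNA with limma, 3 were called higher and 2 lower, and their summed level was 125551 to 230046 normalised counts in R98S and 62733 to 110393 in WT. Most of that sum was Csf2rb, a chain of the interleukin 3 receptor (mean 94858 in R98S and 41121 in WT), and its relative Csf2rb2 (70967 and 30587), whereas Ptprc (3989 and 5587) and Ikzf1 (19.1 and 85.7) were the 2 called lower. The B cell factor Pax5 was at 0 in every total mRNA library. Of 12 keratinocyte and epithelial markers, 5 (Krt14, Krt1, Krt18, Epcam and Perp) were at 0 in every total mRNA library, and the summed level of the 12 ranged from 110 to 166 normalised counts in R98S and from 120 to 196 in WT. The 9 neuronal markers summed to between 22.6 and 54.8 in R98S and between 35.2 and 79.9 in WT, and the 7 fibroblast markers to between 2.76 and 12 in R98S and between 0 and 4.02 in WT. The 6 myeloid markers summed to between 2.76 and 411 in R98S and between 33.0 and 213 in WT, and the 6 T cell markers to between 82.1 and 154 in R98S and between 38.4 and 245 in WT. In polysomal RNA the myeloid sums were 1.46 to 45.6 and 15.3 to 445, and the T cell sums were 85.0 to 360 in R98S and 37.0 to 72.5 in WT, which did not overlap. Of the myeloid markers 2 were tested in each fraction, and Lyz2, which encodes lysozyme, was called lower in both (log2 change -2.66, adjusted p = 0.0132, and -3.17, adjusted p = 0.0097, limma). The other, Mpo, was not called in either. It had 46.4 ± 112 (SD) in R98S and 28.2 ± 69.0 in WT in total mRNA (log2 change 0.286, adjusted p = 0.881, limma). In polysomal RNA it had 4.68 ± 12.2 and 74.7 ± 180 (-1.45, adjusted p = 0.572, limma). Of the T cell markers 3 were tested in total mRNA, and Cd3d was called higher and Cd3g lower. In polysomal RNA 2 were tested, Cd3d (mean 111 in R98S and 9.38 in WT) and Lck (64.9 and 36.6), and both were called higher. These 2 genes made up most of the polysomal sum. Cd3g (4.6 and 14.7) and Cd3e (0.115 and 0.706) had lower means in R98S there, and Cd4 (0.0754 and 0) and Cd8a (0 and 0) were hardly read. Over all genes tested, 14.5% were called higher and 15.8% lower in total mRNA. In polysomal RNA 7.66% were called higher and 13.5% in either direction. What part other cell types had in the levels below was not tested. In bulk RNA, fewer cells of a type and less RNA per cell cannot be told apart. The name non-lymphoid given to the genes was a working name, and the samples hold no other tissue against which it could be checked.

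Lpgat1 encodes an acyltransferase of the endoplasmic reticulum that acts on lysophospholipids such as lysophosphatidylglycerol. Ereg encodes epiregulin, a growth factor of the EGF family that binds the receptors EGFR and ErbB4 and is made by epithelia and by activated myeloid cells. Lgals7 encodes galectin-7, a lectin that binds beta-galactosides and is known from stratified epithelia. Mapre3 encodes EB3, a protein that tracks the growing plus ends of microtubules and is abundant in neurons. Trio encodes a large guanine nucleotide exchange factor that loads the small GTPases RhoG, Rac1 and RhoA with GTP. Gm973, 4930539E08Rik and 2310030G06Rik are annotated as protein-coding, Gm10451 is a long intergenic noncoding RNA and BC064078 is a transcribed pseudogene.

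The genes are scattered over the genome. In the GENCODE M21 annotation of GRCm38, Lpgat1 (chr1:191717834-191784255) and Gm973 (chr1:59516264-59636417) are on chromosome 1 and Mapre3 (chr5:30814641-30866106) and Ereg (chr5:91074622-91093646) are on chromosome 5. Gm10451 is at chr12:76444497-76451336, BC064078 at chr6:128992952-129008040 and Lgals7 at chr7:28863853-28866284, all on the plus strand. Trio (chr15:27730651-28025848), 4930539E08Rik (chr17:28896392-28915324) and 2310030G06Rik (chr9:50739691-50746536) are on the minus strand. At most 3.42% of the exonic bases of any of them, those of Ereg, overlapped an exon of a gene on the other strand, and none overlapped another gene on its own strand. The summed length of their exons ran from 927 bases for Lgals7 to 23395 bases for Trio, and the polysomal values below are set against it.

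Sequence before a RefSeq start was at hand for 7 of the 10 genes, and Ereg, BC064078 and 4930539E08Rik had no entry. The windows are the 250 bases before the RefSeq start (GRCm38.p6), which is not always the start of the GENCODE gene given above. The Lgals7 window lies within that gene, most of the Lpgat1 window shown lies after its GENCODE start, and the 2310030G06Rik window overlaps the gene by its last bases. Lpgat1 and Mapre3 have 2 RefSeq starts each, so the 7 genes gave 9 windows, and the second window of each lies within its gene. They are shown for Lpgat1, the gene with the most reads in total mRNA, and for Trio, Lgals7 and 2310030G06Rik, whose polysomal to total ratios depart furthest from the middle of all genes. They read 5′ to 3′ on the strand of the gene, with CpG dinucleotides in capitals.
Lpgat1, chr1:191717774-191718023, plus strand: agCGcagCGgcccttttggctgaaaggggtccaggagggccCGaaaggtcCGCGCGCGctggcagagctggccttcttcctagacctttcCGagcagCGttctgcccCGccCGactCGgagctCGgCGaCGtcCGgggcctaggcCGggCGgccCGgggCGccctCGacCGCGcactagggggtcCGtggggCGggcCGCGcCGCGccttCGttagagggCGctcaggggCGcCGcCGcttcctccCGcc
Trio, chr15:28025849-28026098, minus strand: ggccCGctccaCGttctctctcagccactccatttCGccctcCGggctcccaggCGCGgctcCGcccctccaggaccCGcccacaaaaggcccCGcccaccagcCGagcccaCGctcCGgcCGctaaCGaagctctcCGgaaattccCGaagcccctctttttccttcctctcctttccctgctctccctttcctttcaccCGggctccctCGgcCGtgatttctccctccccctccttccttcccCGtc
Lgals7, chr7:28864136-28864385, plus strand: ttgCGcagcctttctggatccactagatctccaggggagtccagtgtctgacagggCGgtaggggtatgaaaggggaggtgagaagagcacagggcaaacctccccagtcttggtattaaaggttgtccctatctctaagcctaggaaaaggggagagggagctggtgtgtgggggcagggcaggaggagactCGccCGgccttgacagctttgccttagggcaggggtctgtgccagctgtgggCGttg
2310030G06Rik, chr9:50746528-50746777, minus strand: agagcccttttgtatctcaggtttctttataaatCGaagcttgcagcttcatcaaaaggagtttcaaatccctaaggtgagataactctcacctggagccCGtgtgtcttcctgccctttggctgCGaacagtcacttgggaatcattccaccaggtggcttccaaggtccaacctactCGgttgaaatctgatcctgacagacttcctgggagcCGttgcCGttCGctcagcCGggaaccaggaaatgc
These windows were unlike one another. The Lpgat1 window shown held 35 CpG dinucleotides, more than 97.0% of the 32851 mouse windows of the same length, its second window held 33, and the Trio window held 20, more than 82.1% of them. The Lgals7 window held 5 and the 2310030G06Rik window 8, around the median of 6 of all windows. The letters GGGCGG (a GC box), searched on both strands, were in the Lpgat1, Trio and Lgals7 windows and in 32.7% of all windows. TATAAA was in the 2310030G06Rik window only, with its first base 223 bases before the start, and in 12.4% of all windows. The AP-1 letters TGANTCA were in the Gm973 window, 130 to 124 bases before its start, and in 6.75% of all windows, and the STAT letters TTCNNNGAA, held by 7.02% of all windows, were in none of the 9 windows of these genes. No motif of this search was in all 9 windows. A match is a description of letters and not a bound site.

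Lpgat1 and Gm973 had the highest normalised counts. Lpgat1 ranged from 141 in 2-R98S13 through a median of 415 to 503 in 3-R98S35 in total mRNA, with a mean of 376 ± 117 (SD, n = 9), and WT gave 2 reads in 8 libraries. Pooled over libraries that is a ratio of 1433 (95% counting interval 396 to 11838; this and all such intervals cover counting error only). In polysomal RNA Lpgat1 lay between 109 and 386, with 264 ± 95.5 (SD, n = 8), against 1 read in 6 WT libraries. Every R98S library was above every WT library in both fractions.

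Gm973 ranged from 132 in 2-R98S35 through a median of 335 to 396 in 1-R98S13, with a mean of 288 ± 102 (SD, n = 9). It had the most reads in WT of the 10 genes, 8 over 8 libraries: 2 in 2-WT29, 2 in 3-WT28, 3 in 3-WT29 and 1 in 3-WT36. The pooled ratio was 264 (95% counting interval 134 to 611). With its 3 reads in 3-WT29, Gm973 sat at the limit of the rule. In polysomal RNA it was the highest of the 10 genes, from 328 in 3-R98S11 through a median of 444 to 646 in 2-R98S13, against 3 reads in WT.

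The noncoding Gm10451 and the exchange factor gene Trio had no read in any of the 8 WT total mRNA or 6 WT polysomal libraries. Gm10451 had between 53.1 (2-R98S35) and 195 (2-R98S11) normalised counts in R98S total mRNA, a mean of 141 ± 52.5 (SD, n = 9), at least 346-fold higher than a floor of 3 counts over the WT group. Its polysomal values were the tightest of the 10 genes, 113 to 160 with a coefficient of variation of 15.3%. Trio had between 21.0 (3-R98S13) and 136 (3-R98S35), a mean of 75.5 ± 32.7 (SD, n = 9), at least 196-fold higher than the same floor. In polysomal RNA Trio fell to between 4.56 and 34.4, the lowest level of the 10 genes, resting on 162 reads over 8 libraries and as few as 3 reads in 1 of them.

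The pseudogene transcript BC064078 was the steadiest in total mRNA, with 69.9 to 175 normalised counts, a mean of 131 ± 30.9 (SD, n = 9) and a coefficient of variation of 23.6%. WT gave 5 reads, a ratio of 199 (95% counting interval 85.3 to 615). Its polysomal values ran from 87.4 in 1-R98S13 to 218 in 3-R98S11, against 1 WT read. Lgals7 was the most variable, with 23.9 in 2-R98S13, a median of 98.2 and 156 in 3-R98S13, and a coefficient of variation of 44.9%. Its 5 WT reads fell in 1-WT28, 2-WT28 and 2-WT36, and the ratio was 146 (95% counting interval 62.3 to 450). In polysomal RNA Lgals7 ranged from 111 in 2-R98S13 through a median of 158 to 416 in 3-R98S11, against 1 WT read.

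The remaining genes had lower means in total mRNA than the genes above, apart from Trio, whose mean was 75.5. Mapre3 had 76.7 ± 28.2 (SD, n = 9), from 27.6 in 2-R98S35 through a median of 89.2 to 103 in 1-R98S11, against 1 WT read. 4930539E08Rik had 75.4 ± 20.8 (SD, n = 9), from 40.7 in 2-R98S13 through a median of 78.5 to 112 in 3-R98S35, against 5 WT reads. 2310030G06Rik had 54.3 ± 20.1 (SD, n = 9), from 18.6 in 2-R98S13 through a median of 59.5 to 77.5 in 1-R98S35, against 2 WT reads. For these 3 genes a low library, 2-R98S13 or 2-R98S35, set the bottom of the range. Ereg, the growth factor, was the lowest at 33.2 ± 9.89 (SD, n = 9), from 21.2 in 2-R98S13 through a median of 33.1 to 48.2 in 3-R98S11, against 1 WT read in total mRNA and none in polysomal RNA. The polysomal means were 105 ± 30.2 for Mapre3, 90.5 ± 24.3 for 4930539E08Rik, 101 ± 48.7 for 2310030G06Rik and 30.8 ± 6.4 for Ereg (SD, n = 8 each).

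**Figure D1:**
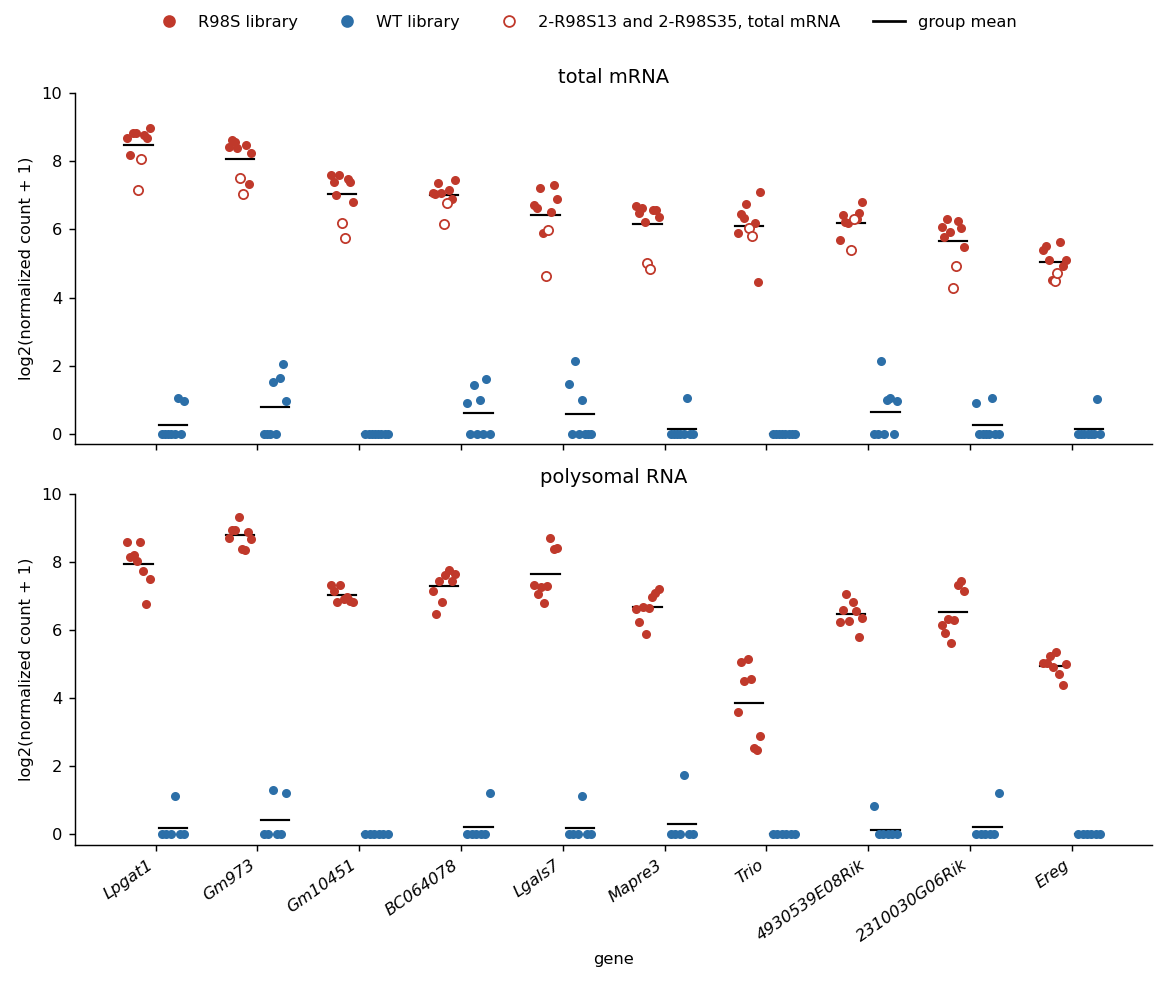
Levels of the 10 genes in each library as log2(normalised count + 1), total mRNA above (9 R98S and 8 WT libraries) and polysomal RNA below (8 and 6), with a black line at the group mean. Open points mark the total mRNA libraries 2-R98S13 and 2-R98S35, which are the lowest for several genes, and no R98S point reaches a WT point.

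All 10 genes had every R98S library above every WT library, in total mRNA and in polysomal RNA. Across the whole table, among genes averaging 10 or more normalised counts, 2.07% did so in total mRNA and 3.04% in polysomal RNA. Nothing is read from this for the 10 genes, since the rule strongly favoured it in total mRNA and the polysomal libraries came from the same cultures. Summed over the 10 genes, the WT total mRNA libraries held between 0 reads (1-WT29) and 6 reads (3-WT28 and 3-WT29), at most 0.637% of the mean summed level in R98S. Reads of the 10 genes were thus found in 7 of 8 WT total mRNA libraries, and "absent" would be too strong a word for 8 of the 10 genes.

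The edge of the rule was crowded. With a mean of at least 30 normalised counts in R98S, 32 genes had at most 3 reads in every WT library, the 10 among them, and 19 of the 32 also had at least 10 normalised counts in every R98S library. Just inside the limit, next to Gm973 with 3 reads, were Mmp24 (mean 32.4 in R98S) and Svs2 (34.2), neither of them chosen. Just outside, with 4 reads in a WT library, were 8 genes, among them Bbs7 (mean 4228), Tfpi (136) and Dlg3 (132). At most 3 reads over all WT libraries together held for 6 of the 10 genes.

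Per base of exon the order changed. On the RPKM scale, in which reads are divided by exon length in kilobases and by library size, Lgals7 was highest in R98S total mRNA at 6.59 ± 2.95 (SD, n = 9), followed by Gm10451 at 3.60 ± 1.32, Gm973 at 3.35 ± 1.15, BC064078 at 3.28 ± 0.773 and Lpgat1 at 3.16 ± 0.984. Lower down came 2310030G06Rik at 1.75 ± 0.63, Mapre3 at 1.42 ± 0.511, 4930539E08Rik at 1.04 ± 0.298, Ereg at 0.514 ± 0.149 and Trio at 0.207 ± 0.0914. The ranges of each pair of neighbours in this order overlapped. All 10 levels lay below 8.58, the median of the 10573 genes that averaged 10 or more and had a known length, and Lgals7 stood at the 41.6th percentile and Trio at the 1.82nd.

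The total mRNA libraries 2-R98S13 and 2-R98S35 held less of these genes than other libraries of the same clones. In 2-R98S13, 9 of the 10 genes were below the mean of 1-R98S13 and 3-R98S13, with a median of 45.1% of that mean and a range from 18.8% for Lgals7 to 122% for Trio. In 2-R98S35 all 10 genes were below the mean of 1-R98S35 and 3-R98S35, with a median of 49.5% and a range from 30.8% for Mapre3 to 84.6% for 4930539E08Rik. Over all genes that averaged 10 or more, the same measure had medians of 97.4% and 98.9%, and the 10 genes in 2-R98S11 stood at 96.0%. The summed level was 664 normalised counts in 2-R98S13 and 841 in 2-R98S35, and between 1313 and 1645 in the other 7 R98S total mRNA libraries.

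In the polysomal libraries of the same cultures 4 of the 10 genes were below 100% in each. The 10 genes stood at a median of 108% in 2-R98S13, from 42.1% for 2310030G06Rik, 47.9% for Lgals7 and 55.9% for Mapre3 to 184% for Trio. In 2-R98S35 the median was 104%, from 63.7% for Lgals7 to 162% for Lpgat1, and in both the summed levels were 1541 and 1545, within the range of 1434 to 1710 of all R98S polysomal libraries. Gm10451 was at 72.5 in the total mRNA of 2-R98S13 against 169 and 167 in 1-R98S13 and 3-R98S13, whereas in polysomal RNA it was at 160 against 141 and 116. The total mRNA libraries held 17535532 reads in 2-R98S13 and 21030712 in 2-R98S35, within the 11471068 to 22059792 of all R98S total mRNA libraries. What set the pair apart was not tested. A drop of another kind was seen in 3-R98S13, where Trio was at 27.7% and Gm973 at 56.2% of the mean of the clone's other libraries while 7 of the other genes were above it.

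**Figure D2:**
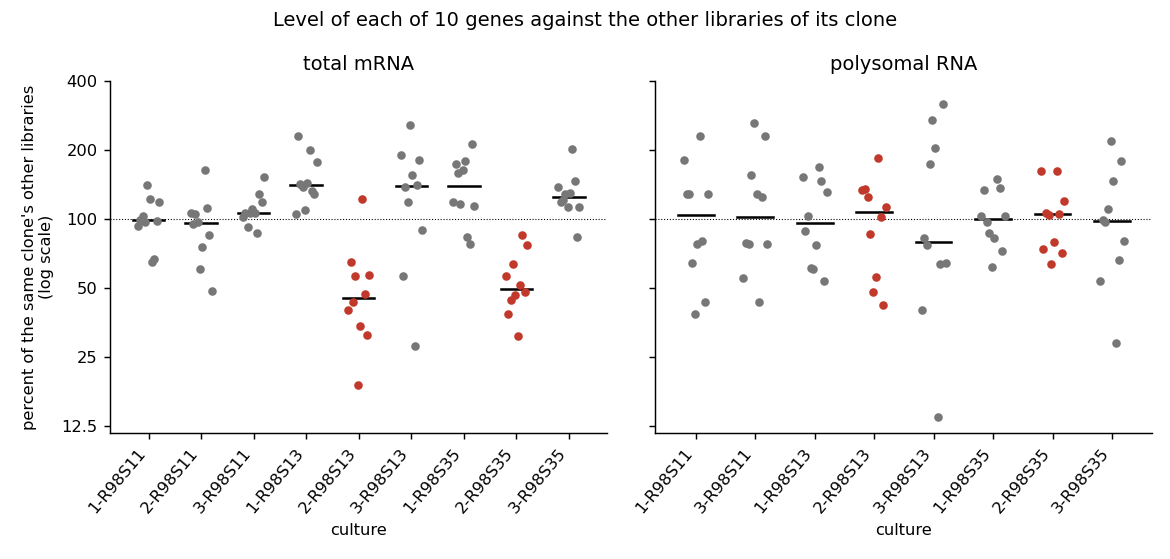
Level of each of the 10 genes in each R98S culture as a percentage of the mean of the other libraries of the same clone (log scale), for total mRNA and polysomal RNA; points are genes, lines are medians, and the cultures 2-R98S13 and 2-R98S35 are in red. Their medians are 45.1% and 49.5% in total mRNA and 108% and 104% in polysomal RNA.

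The shared drop shaped how the genes varied together. Over the 9 R98S total mRNA libraries the 45 pairs of the 10 genes had a median Pearson r of 0.608 on the log2 scale, and 43 were above 0. Without 2-R98S13 and 2-R98S35 the median r was 0.0367, and 24 pairs were above 0. In polysomal RNA the median over 8 libraries was -0.227. By the same profile, the 5 other genes most like the mean of the 10 over the 9 libraries were Psmd13 (r = 0.977), a proteasome subunit gene, Ppp1r14b (0.959), Tmem14c (0.959), Fam171a2 (0.955) and Tssc4 (0.955). Without the 2 libraries their r lay between 0.191 and 0.749. These are descriptions over libraries that share clones, replicate numbers and scaling.

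The R98S clones 11, 13 and 35 were compared in total mRNA, with nothing read from the count of calls, since the choice favoured genes read in every clone. In the F test of limma over the 9 libraries, 0 of 10 were called at an adjusted p under 0.1, beside 1.39% of all 11104 genes tested, and their adjusted p-values lay between 0.385 and 0.939. None had an unadjusted p under 0.05, and edgeR called none. The largest difference between clones was that of Gm10451, with 189 ± 8.59 in clone 11, 136 ± 55.1 in clone 13 and 97.4 ± 39.5 in clone 35 (SD, n = 3 each), a log2 difference between clones 35 and 11 of -1.04 ± 0.388 (SE; adjusted p = 0.395, limma). For Lpgat1 the clones had 436 ± 19.0, 281 ± 136 and 411 ± 124 (SD, n = 3 each). The SDs of clones 13 and 35 include the low libraries 2-R98S13 and 2-R98S35, and without these libraries 0 of 10 were called as well.

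In polysomal RNA, from the same cultures, 0 of 10 genes were called, all with an adjusted p of 1.0 (limma), beside 0.028% of 10721 genes, with no unadjusted p under 0.05 and none called by edgeR. As in total mRNA, nothing is read from the counts of calls among the 10 genes, since the choice favoured genes read in every clone. Replicate numbers paired these libraries, and with the number as a block the calls over all genes rose from 3 to 242 while 0 of the 10 genes were called, the lowest adjusted p being 0.231, for Lpgat1. Trio had 7.89 ± 4.42 in clone 11 (SD, n = 2), 23.9 ± 16.8 in clone 13 and 17.1 ± 9.25 in clone 35 (SD, n = 3 each), and the values of the clones overlapped. Without replicate number 3, which leaves clone 11 with 1 library, BC064078 (adjusted p = 0.0469) and Trio were called, 2 of 10 beside 26.3% of all genes.

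The polysomal to total ratio within R98S was taken in each of the 8 cultures with both libraries and set against 0 with limma. Trio fell in polysomal RNA, Lgals7, 2310030G06Rik, Gm973 and Mapre3 rose, and the other 5 genes were not called in the fit without a block. Thus 4 of 10 were called higher and 1 of 10 lower, beside 17% and 47.8% of all 10631 genes tested, or 5 of 10 beside 64.8% in either direction. The tables had been scaled separately, so 0 has no absolute meaning. The median log2 ratio of all genes was -0.27, and the percentile of each gene among all genes, which a common shift leaves as it is, is given as well.

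Trio had the lowest ratio, at -2.18 ± 0.362 (SE) on the log2 scale, adjusted p = 0.000556, and it was lower in 8 of 8 cultures. Its ratio ranged from -0.91 in 2-R98S13 to -4.20 in 3-R98S35, and it lay at the 1.99th percentile of all genes. With the polysomal counts as low as they were for Trio, the pseudocount of 1 keeps the ratio nearer to 0 than the counts themselves.

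Lgals7 had the highest ratio, 1.17 ± 0.244 (SE), adjusted p = 0.0023 (limma), higher in 8 of 8 cultures and at the 99.6th percentile. It ran from 0.06 in 1-R98S35 to 2.20 in 3-R98S11. For 2310030G06Rik the ratio was 0.89 ± 0.228 (SE), adjusted p = 0.00729, higher in 8 of 8 cultures and at the 98th percentile. In its number 1 cultures it averaged 0.08, and in numbers 2 and 3 it averaged 1.37 and 1.38. The 3 called genes Trio, Lgals7 and 2310030G06Rik kept their calls and directions under all 14 alternatives tried. Among these 14, leaving out replicate number 2 and leaving out 2-R98S13 and 2-R98S35 drop the same cultures and are the same fit.

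Gm973 had a ratio of 0.75 ± 0.219 (SE), adjusted p = 0.0142, higher in 7 of 8 cultures and at the 95.8th percentile. It was at 0.47 and adjusted p = 0.0833 without the cultures 2-R98S13 and 2-R98S35, and its call was lost without clone 13 (0.46, adjusted p = 0.103). Mapre3 had 0.53 ± 0.219 (SE), adjusted p = 0.0568, higher in 6 of 8 cultures and at the 89.9th percentile. Its call was lost without the same 2 cultures (0.26, adjusted p = 0.269), without replicate number 3 (0.49, adjusted p = 0.182), without clone 13 (0.62, adjusted p = 0.106) and without clone 35 (0.31, adjusted p = 0.325).

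The other 5 genes had log2 ratios from -0.47 ± 0.287 (SE) for Lpgat1, adjusted p = 0.177, to 0.31 ± 0.165 for BC064078, adjusted p = 0.132. The value was 0.27 ± 0.199 for 4930539E08Rik (adjusted p = 0.269), 0.07 ± 0.221 for Gm10451 (adjusted p = 0.806) and -0.15 ± 0.21 for Ereg (adjusted p = 0.566). Among all genes these stood at percentile 38.3 for Lpgat1, 56.8 for Ereg, 68.7 for Gm10451, 79.0 for 4930539E08Rik and 80.8 for BC064078. With replicate number as a block, Lpgat1 (-0.34, adjusted p = 0.019), BC064078 (0.36, adjusted p = 0.0149) and 4930539E08Rik (0.32, adjusted p = 0.0702) were also called, which made 8 of 10 beside 75.3% of all genes. Leaving out cultures moved calls as well: Lpgat1 was called lower without 2-R98S13 and 2-R98S35 (-0.87, adjusted p = 0.0219) and stood at 0.125 without replicate number 3 (adjusted p = 0.63). BC064078 was called without number 1 (0.58, adjusted p = 0.0237) and 4930539E08Rik without number 3 (0.60, adjusted p = 0.0123). Without 2-R98S13 and 2-R98S35 they were at 0.15 (adjusted p = 0.498) and 0.12 (adjusted p = 0.68), and at adjusted p = 0.343 and 0.556 when the block was kept as well. 4930539E08Rik was at 0.11 (adjusted p = 0.752) without number 1, and each of the 2 genes was called in 4 of 14 alternatives. Centred on the median gene of each culture, an alternative added after the data were seen, BC064078 and 4930539E08Rik were called higher, as they were with edgeR (0.56, adjusted p = 0.0187, and 0.52, adjusted p = 0.0515), and Lpgat1 was at -0.20 (adjusted p = 0.565). The split of calls over all genes moved with the scaling: 26.3% of the calls were higher as tested, 20.5% with TMM scaling, 48.4% with edgeR, whose median gene was at -0.03, and 50.2% when centred.

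The cultures 2-R98S13 and 2-R98S35, low in total mRNA, gave the highest or near-highest ratios of most of these genes. Averaged over this pair, the log2 ratio was 1.75 for Lgals7, 1.58 for Gm973, 1.36 for Mapre3, 1.15 for Gm10451 and 0.70 for Lpgat1, whereas the median gene was at -0.28 in them. Over the 6 other cultures Gm10451 averaged -0.29 and Lpgat1 -0.87. These are the only R98S cultures of replicate number 2 with a polysomal library, so the number and the pair cannot be told apart in the ratio.

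**Figure D3:**
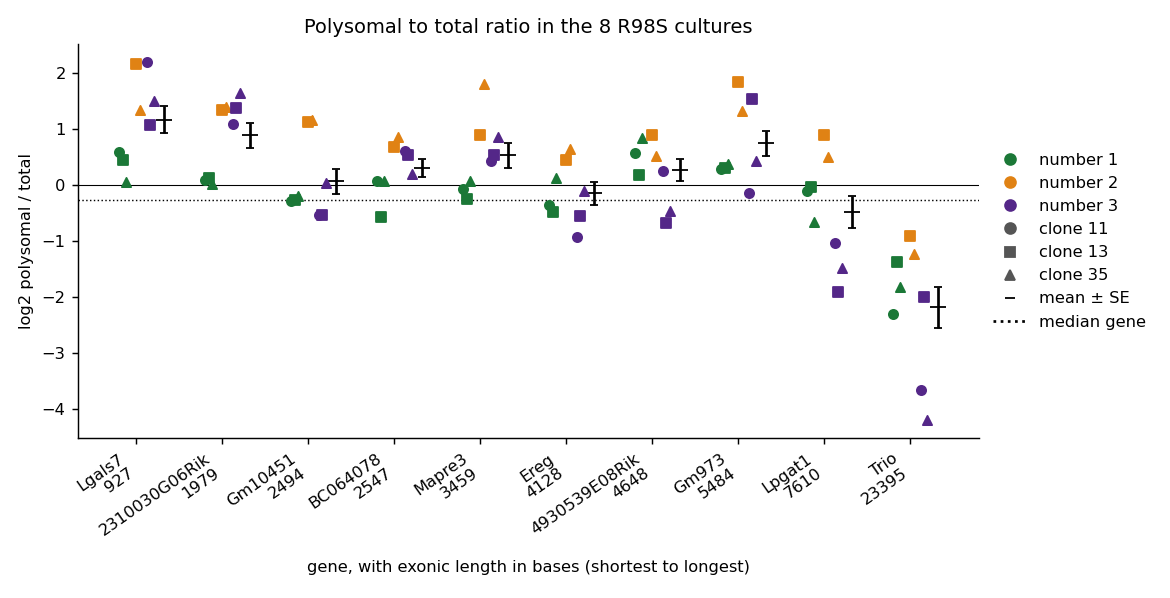
log2 ratio of polysomal to total normalised counts for the 10 genes, from the shortest to the longest summed exon length, in the 8 R98S cultures (colour, replicate number; symbol, clone), with the mean and its SE and a dotted line at the median gene (-0.27). Lgals7 and 2310030G06Rik are above 0 in all cultures and Trio below 0 in all.

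The difference in polysomal level between replicate number 3 and the other numbers went with the length of the gene. In R98S polysomal RNA Trio averaged 2.63 on the log2(normalised count + 1) scale in number 3 against 4.58 in numbers 1 and 2, a difference of -1.95 that lay at the 1.18th percentile of all genes. Lpgat1, the next longest at 7610 bases, differed by -0.97. At the short end Lgals7 differed by 1.34, with 416, 331 and 341 normalised counts in number 3 and 111 to 159 in the other cultures, and 2310030G06Rik by 1.24. The number 3 libraries lay above all others for Lgals7, 2310030G06Rik and Mapre3 and below all others for Trio and Lpgat1, 5 of 10 genes, beside 55.1% of all genes that did not overlap in either direction.

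The genes of middle length lay between these values. Mapre3 differed by 0.68, BC064078 by 0.53, Gm10451 by -0.22, Gm973 by -0.23, 4930539E08Rik by -0.37 and Ereg by -0.44. Across the 10 genes the Spearman rho of this difference with exonic length was -0.903. Across the 10217 genes tested with a known length it was -0.478, with a median difference of 0.68 in the 2556 shortest genes and -0.51 in the 2554 longest. In total mRNA the same rho was 0.00753 over all genes and -0.43 over the 10. Genes are not independent replicates, and the part that length played in the ratios of Trio, Lgals7 and 2310030G06Rik was not tested beyond leaving number 3 out. Without it the log2 ratio was -1.52 for Trio (adjusted p = 0.000469), 0.92 for Lgals7 (adjusted p = 0.019) and 0.59 for 2310030G06Rik (adjusted p = 0.083), all in limma.

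**Figure D4:**
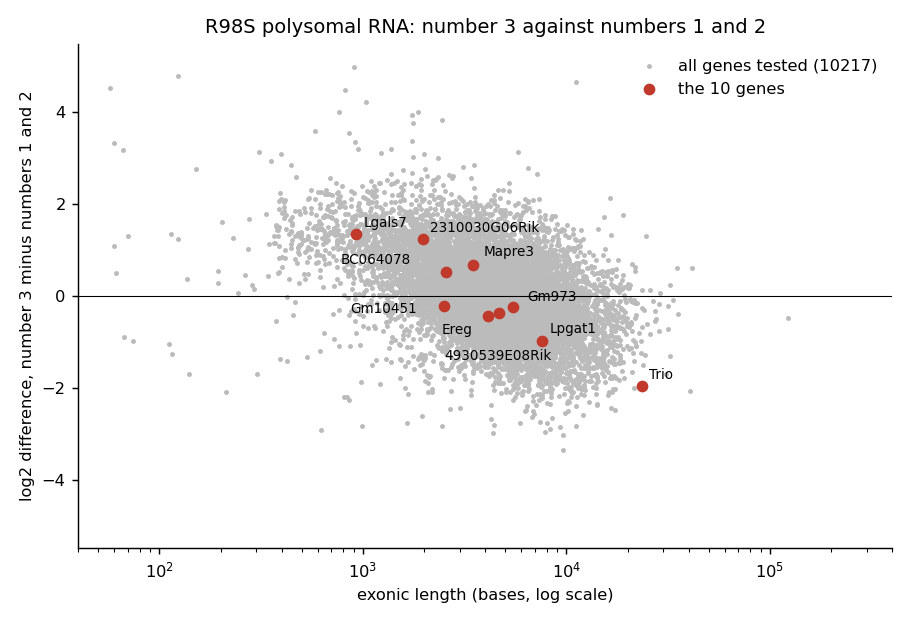
Difference in log2 polysomal level between replicate number 3 and numbers 1 and 2 in R98S against summed exon length (log scale), for 10217 genes in grey and the 10 genes in red. Lgals7 at 927 bases is at 1.34 and Trio at 23395 bases is at -1.95.

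The relatives of these genes were compared between R98S and WT in total mRNA with limma, where 14.5% of all genes tested were called higher, 30.3% in either direction, and the median log2 change of all genes was 0.00. Of the 14 other EGF family ligands and receptors, 4 were tested, 1 was called higher and none lower. The higher gene was the receptor Erbb3, with 836 ± 208 in R98S and 562 ± 80.1 in WT, a log2 change of 0.55 ± 0.135 (SE), adjusted p = 0.00674, and 7 of 9 R98S libraries above every WT library. The receptors of epiregulin were hardly read: Egfr averaged 1.54 normalised counts in R98S and 0.517 in WT, and Erbb4 0.596 and 0. The sister ligands Areg, Btc and Epgn were at 0 in every library of both fractions.

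Of the 8 other galectin genes in the tables, 6 were tested, 3 were called higher and 1 lower, with a median log2 change of 0.08. Lgals3, which encodes the widely expressed galectin-3, was at 595 ± 222 (SD, n = 9) in R98S and 42.4 ± 28.3 (SD, n = 8) in WT, a log2 change of 4.09 ± 0.44 (SE), adjusted p = 2.6e-06, with 9 of 9 R98S libraries above every WT library. Lgals9 rose by 0.80 ± 0.166 (SE) on the log2 scale, adjusted p = 0.002.

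Among 18 other lysophospholipid and glycerol phosphate acyltransferase genes, 14 were tested, 1 was called higher (Lpcat4, log2 change 0.40 ± 0.141 SE, adjusted p = 0.0497) and 3 lower, with Lpcat1 at -0.54 ± 0.143 (adjusted p = 0.0104). The call of Lpcat4 was lost in 4 of 16 alternatives and that of Lpcat1 without replicate number 1 or 3, with adjusted p up to 0.21 and 0.171. Of 15 other genes for microtubule plus-end proteins, 14 were tested, 1 was called higher, the linker protein gene Clip2 (0.56 ± 0.106 SE, adjusted p = 0.000962), and 4 lower. For the exchange factor list around Trio, 24 of 29 genes were tested, 6 were called higher and 7 lower, with a median of -0.05. Rhog, whose product Trio activates, was at 1559 ± 252 in R98S and 1076 ± 146 in WT (0.53 ± 0.104 SE, adjusted p = 0.00128), and Arhgef6 rose by 0.74 ± 0.169 (adjusted p = 0.00431). Kalrn, the paralog of Trio, averaged 18.5 ± 26.3 and 1.54 ± 2.66, with 3 of 9 R98S libraries above every WT library (2.04 ± 0.832 SE, adjusted p = 0.0853), and its call was lost in 5 of 13 alternatives, with adjusted p up to 0.303.

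In polysomal RNA 7.66% of all genes tested were called higher in R98S and 13.5% in either direction. There Erbb3 (log2 change 0.96 ± 0.261 SE, adjusted p = 0.027), Lgals3 (5.29 ± 0.373, adjusted p = 1.15e-07) and Arhgef6 (0.96 ± 0.301, adjusted p = 0.0571) were called higher and Lpcat1 (-0.70 ± 0.238, adjusted p = 0.0811) lower. Of 15 alternatives, Lgals3 was called in 15, Erbb3 in 14 (not without replicate number 1, adjusted p = 0.207) and Arhgef6 and Lpcat1 in 8 each. Lgals9 (0.51 ± 0.274, adjusted p = 0.304), Rhog (0.46 ± 0.241, adjusted p = 0.296), Lpcat4 (0.35 ± 0.205, adjusted p = 0.366) and Clip2 (0.91 ± 0.423, adjusted p = 0.221) were not called in polysomal RNA. With replicate number as a block Clip2 (0.73, adjusted p = 0.00375) and Rhog (0.56, adjusted p = 0.00624) were called there. With replicate number as a block the polysomal calls over all genes went from 1449 to 3307. Both comparisons rest on the same cultures and are no independent support of each other.

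The chromosomal neighbours of the 10 genes were compared between R98S and WT in the same way. Within 500 kb of a start lay 119 tested genes, of which 14 were called higher and 14 lower in R98S total mRNA, 11.8% each, beside 14.5% and 15.8% of all genes, and their median log2 change was -0.03. Hspa2, a heat shock protein gene that starts at -40.3 kb from the start of Gm10451, had 258 ± 93.3 (SD, n = 9) in R98S and 95.9 ± 25.6 (SD, n = 8) in WT, a log2 change of 1.38 ± 0.211 (SE), adjusted p = 0.000138, with 9 of 9 R98S libraries above every WT library. Fbxo27, which starts at -171 kb from that of Lgals7, had 68.6 ± 15.7 and 8.96 ± 9.09 (3.33 ± 0.47 SE, adjusted p = 6.26e-05), again with 9 of 9 above. Cd69, an early activation receptor gene 282 kb from BC064078, moved the other way, with 138 ± 174 in R98S and 1264 ± 1379 in WT (-3.31 ± 0.65 SE, adjusted p = 0.00128). In polysomal RNA Hspa2 (1.52, adjusted p = 3.35e-05) and Fbxo27 (3.58, adjusted p = 1.3e-05) were called and Cd69 (-2.78, adjusted p = 0.157) was not. Il18, which starts 192 kb from 2310030G06Rik and had 2 WT reads, was singled out after its values were seen. It had 239 ± 375 in R98S and 0.236 ± 0.667 in WT, with 3 of 9 R98S libraries above every WT library (2.96 ± 1.52 SE, adjusted p = 0.17). It was called in 5 of the 15 alternatives in which it was tested. Without clone 13 its log2 change was 4.53 (adjusted p = 0.0563), and without clone 35 it was 4.53 (adjusted p = 0.0582). Without clone 11 Il18 was not tested. Whether Il18 differs from WT outside clone 11 was therefore not tested. Its log2 change was 9.30 with edgeR (adjusted p = 0.00556) and 9.95 with DESeq2 (adjusted p = 0.00603). No R98S value reached down to a WT value for Hspa2, Fbxo27 and Catsperg1, the last of which was too low to be tested, so this held for 2 of 119 tested neighbours beside the 2.07% of all genes. Trio had 1 tested neighbour and Ereg 2, and none of them was called.

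**Figure D5:**
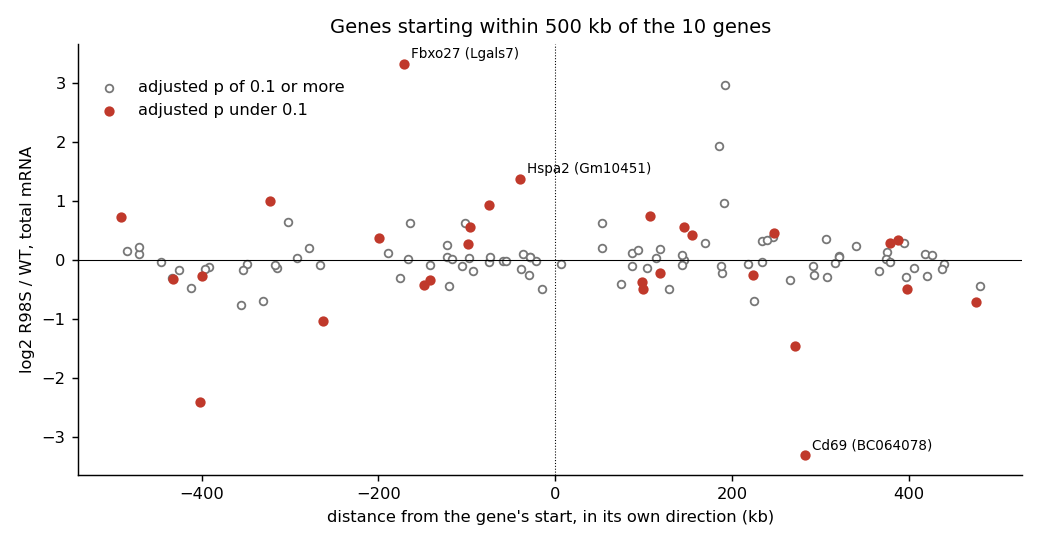
log2 change between R98S and WT in total mRNA of the 119 tested genes that start within 500 kb of the 10 genes, by distance from the start in the direction of the gene (kb); filled points have an adjusted p under 0.1. Most points lie near 0, and the labelled Fbxo27, Hspa2 and Cd69 are at 3.33, 1.38 and -3.31.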

How the data were processed

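RNA was sequenced as total mRNA and polysomal RNA from Ba/F3 clones. Per the study's methods and the submitters' processing notes, reads were freed of rRNA and tRNA (Bowtie2), aligned to mm10 with TopHat 2.0.11, kept at a mapping quality of at least 10 and counted over exons. Use of strand in counting was not given in the sources used here. The deposited signal values are counts divided by DESeq2 size factors by the authors, in 1 table per fraction, each scaled on its own. Whole reads were recovered from their steps (100.0% of values within 0.001 of a whole read).

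Genes with a mean of at least 10 were tested with limma 3.58.1 (R 4.3.3) on log2(value + 1), two-sided, with Benjamini-Hochberg adjustment over all genes tested and calls at an adjusted p under 0.1. R98S was compared with WT in total mRNA and in polysomal RNA, the ratio of both fractions with 0 over 8 R98S cultures, and the 3 R98S clones with each other. Nothing says that cultures of a clone were derived apart, so p-values measure the spread between these samples, which may be technical. Alternatives were a pseudocount of 0.5, no filter, TMM, edgeR 4.0.16 and DESeq2 1.42.0 on recovered reads, a block on replicate number, and leaving out numbers, clones and the pair 2-R98S13 and 2-R98S35. Deviations of R98S and WT with the same number correlated at 0.481 to 0.62 in total mRNA and 0.666 to 0.867 in polysomal RNA, so the numbers pair these libraries. The main fits nevertheless carried no block, and the calls and shares over all genes come from them unless a block is named. The same check between R98S clones gave 0.518 to 0.804 in polysomal RNA. Genes were named by rule: the 10 genes, at most 5 genes of a list or near a start that were called or highest, and the 5 with the most similar profile. Egfr, Erbb4, Areg, Btc and Epgn, the markers and the genes at the edge of the choice were named beside it, after their values were seen. The genes and the gene lists were chosen with earlier results of these data known. The fits were tested on simulated data.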

Additional observations from a re-analysis of the deposited data

Results flagged for a closer look

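In WT libraries, where most values are 0, a single library with 1 or 2 reads stands apart from the rest of its group. In total mRNA this held for Mapre3 in 3-WT28 (1.07 normalised counts), 4930539E08Rik in 2-WT28 (3.43) and Ereg in 3-WT29 (1.03). In polysomal RNA it held for Lpgat1 and Lgals7 in 3-WT28 (1.17 each), Mapre3 in 3-WT28 (2.35), BC064078 and 2310030G06Rik in 3-WT36 (1.32 each) and 4930539E08Rik in 1-WT29 (0.77). These are 9 of 49 groups of values examined, all 9 of them in WT, and nothing is read from them. No value within R98S, and no ratio, was marked in this way. The check looked only at the gap beside the single most extreme value. The low pair 2-R98S13 and 2-R98S35 could therefore hide each other in it.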

How the results depend on the processing

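The count of genes that differed between R98S and WT in total mRNA was 3369 as tested and 4277 with a replicate block. It lay between 1322 and 2636 when a replicate number was left out, and was 1882 without clone 11 and 2227 without clone 28. In polysomal RNA 1449 became 3307 with a replicate block, 599 to 2063 without a replicate number, 958 without clone 11 and 813 without clone 35. For the ratio within R98S, 5 of the 10 genes were called as tested (64.8% of all genes), 8 with a replicate block (75.3%), 7 with edgeR (62.3%) and 3 without clone 13 (57.3%). Gm10451 changed sign to -0.29 and was called (adjusted p = 0.0712) with a replicate block and without 2-R98S13 and 2-R98S35. Between R98S clones in total mRNA, 154 genes became 816 with a replicate block, 9 to 111 without a replicate number, 324 without 2-R98S13 and 2-R98S35 and 994 with both. The numbers were not taken to pair these libraries, as clones 13 and 35 of number 3 correlated at 0.097 only, against 0.166 to 0.503 for the other pairs. In polysomal RNA 3 genes became 242 with a replicate block, 1 with a pseudocount of 0.5 and 0 to 2815 without a replicate number. The highest count came without replicate 3, where clone 11 has 1 library that is assumed to vary like the others, and BC064078 and Trio were 2 called genes there, where 26.3% of all genes were called. The causes were not tested. On the recovered whole reads edgeR called 3321 genes in total mRNA, 1450 in polysomal RNA and 6627 for the ratio, close to the 6887 ratios called as tested. In every alternative run, the summed level of the 10 genes in R98S stayed within 1 SD (1254 to 1517 in total mRNA). Depth limits WT: a count of 0 allows up to 3 reads. Trio's polysomal values rest on as few as 3 reads.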
